A study of Mus musculus with 6 samples.

Results

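MHC class I genes encode the proteins that show peptides from inside the cell at its surface. The genes described here were 9 members of this pathway, *H2-K1*, *H2-D1*, *B2m*, *Tap1*, *Tap2*, *Tapbp*, *Psmb8*, *Psmb9* and *Psmb10*, and they were found as all array probes whose listed gene name equals one of these symbols. This gave 17 of the 45281 probes on the array, which carry 30774 distinct names. The cells were mouse embryonic stem (ES) cells of the 129/SvEv strain that lacked *Dicer1*, the enzyme that makes mature miRNAs. They also lacked the endogenous *Ago2* and carried a myc-tagged Ago2 transgene under the CAG promoter, in lines picked as single colonies and grown without feeder cells. In the treated group, 3 transfections delivered a mimic of miR-294, a miRNA abundant in normal ES cells. In the control group, 3 transfections delivered cel-239b, a *C. elegans* miRNA that serves as the control, and both groups shared every other condition. Each transfection used 300 pmol of mimic with 1 µg of a GFP plasmid in medium with 15% FCS and 2000 U/ml of LIF, the cytokine that keeps ES cells undifferentiated. Total RNA of the GFP-positive cells, sorted 24 hr later, was hybridised to 6 Illumina mouse arrays, 3 per group. The comparison asks how the mRNA of each gene differed once miR-294 was the only mature mouse miRNA supplied.

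In antigen presentation, cytosolic proteins are cut into peptides by the proteasome, whose catalytic subunits Psmb5, Psmb6 and Psmb7 are replaced by Psmb8, Psmb9 and Psmb10 in the immunoproteasome. The Tap1 and Tap2 proteins form the transporter that carries peptides into the endoplasmic reticulum (ER), where tapasin (*Tapbp*) bridges it to empty class I molecules. A class I molecule is a heavy chain, here from *H2-K1* or *H2-D1*, bound to beta-2-microglobulin (*B2m*). Interferons raise most of these genes through the Irf factors, among others, and Nlrc5 and the NF-kappaB factors also act on their promoters. Class I expression in ES cells is known to be low.

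A miRNA pairs with its targets mainly through its seed, bases 2 to 8. The mature miR-294 sequence from RefSeq is shown because it is the treatment, and miR-302b is shown as a relative with the same seed. Capitals mark the seed, and coordinates are those of GRCm38.p6, with miR-294 at chr7:3220691-3220712 and miR-302b at chr3:127545275-127545297, both on the plus strand. The same seed is found in miR-291a-3p, miR-295-3p and miR-302d-3p.
mmu-miR-294-3p: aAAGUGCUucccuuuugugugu
mmu-miR-302b-3p: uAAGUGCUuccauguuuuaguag

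Promoter windows of RefSeq, which run from 250 bases before to 50 bases after each annotated start in GRCm38.p6, were matched by symbol for 8 of the 9 members, all but *Tap2*, with 2 windows for *H2-K1*. The motifs searched, on both strands, were the Irf core (AANNGAAA), the interferon response motif GAS (TTCNNNGAA), CCAAT and the kappaB consensus. Over 32851 windows of this length, the share that holds each is 23.9%, 8.3%, 37.4% and 4.51%. The Irf core and the kappaB consensus were each found for 3 of the 8 members, *H2-K1*, *H2-D1* and *B2m*, the GAS for *Psmb8* alone, and CCAAT for 6 members. Such a match is a description of letters and not a bound site. In the windows of *H2-K1* and *H2-D1* the kappaB consensus matched at 2 positions that overlap by all but a base. The heavy chain windows were 73.3% identical over the 240 bases that align without gaps. Windows of both heavy chains, of *B2m* and of *Psmb8*, the member with the largest difference below among those read in both groups, are shown 5′ to 3′ with all motif matches in capitals. They lie at chr17:34000298-34000597 on the minus strand (*H2-K1*) and on the plus strand at chr17:35262844-35263143 (*H2-D1*), chr2:122147437-122147736 (*B2m*) and chr17:34197945-34198244 (*Psmb8*).
H2-K1: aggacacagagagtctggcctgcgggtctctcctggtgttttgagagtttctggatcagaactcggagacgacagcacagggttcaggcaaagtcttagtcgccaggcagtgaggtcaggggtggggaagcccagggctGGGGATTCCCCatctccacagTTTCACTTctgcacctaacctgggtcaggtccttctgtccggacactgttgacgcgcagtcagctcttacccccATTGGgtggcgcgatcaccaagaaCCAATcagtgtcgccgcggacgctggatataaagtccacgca
H2-D1: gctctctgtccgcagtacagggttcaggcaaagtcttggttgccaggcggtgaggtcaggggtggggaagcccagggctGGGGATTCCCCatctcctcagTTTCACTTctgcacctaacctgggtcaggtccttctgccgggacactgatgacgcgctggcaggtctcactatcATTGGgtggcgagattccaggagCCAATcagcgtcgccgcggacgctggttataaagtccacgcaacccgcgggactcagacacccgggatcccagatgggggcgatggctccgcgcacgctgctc
B2m: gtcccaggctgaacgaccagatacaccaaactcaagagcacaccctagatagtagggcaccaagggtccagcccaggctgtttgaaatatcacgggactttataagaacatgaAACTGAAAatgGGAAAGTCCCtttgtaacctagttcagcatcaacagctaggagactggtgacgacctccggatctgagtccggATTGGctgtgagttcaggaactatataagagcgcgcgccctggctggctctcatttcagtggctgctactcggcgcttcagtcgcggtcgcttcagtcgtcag
Psmb8: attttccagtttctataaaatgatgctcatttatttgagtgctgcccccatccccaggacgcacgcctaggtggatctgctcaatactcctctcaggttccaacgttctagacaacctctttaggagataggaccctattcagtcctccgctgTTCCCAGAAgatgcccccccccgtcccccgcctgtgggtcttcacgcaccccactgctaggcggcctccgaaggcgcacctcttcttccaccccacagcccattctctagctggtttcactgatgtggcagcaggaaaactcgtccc

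*Psmb9*, *Tap1*, *Psmb8* and *Tap2* are next to each other in this order on chromosome 17, with MHC class II genes on either side. The windows of *Psmb9* and *Tap1* share 275 bases on opposite strands, so these genes start from a common stretch of DNA. *H2-K1*, *H2-D1* and *Tapbp* are also on chromosome 17, whereas *B2m* is on chromosome 2 and *Psmb10* on chromosome 8. The *Tap1* window is shown because it covers both divergent starts, at chr17:34187306-34187605 on the plus strand, with its CCAAT in capitals.
Tap1: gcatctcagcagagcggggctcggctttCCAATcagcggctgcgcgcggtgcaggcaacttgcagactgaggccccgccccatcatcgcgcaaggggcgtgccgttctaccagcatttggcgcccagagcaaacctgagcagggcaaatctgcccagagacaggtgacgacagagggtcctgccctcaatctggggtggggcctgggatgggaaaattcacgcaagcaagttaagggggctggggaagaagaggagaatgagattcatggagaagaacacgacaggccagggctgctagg

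Of the 9 members, 7 had at least 1 probe that was lower with miR-294, among them both heavy chains, the transporter and tapasin genes, *Psmb8* and *Psmb9*. *B2m* was higher by 1 of its probes and *Psmb10* did not pass the test. Among probes detected in both groups, the largest difference was that of *Psmb8*, whose mRNA signal was 2.36-fold lower with miR-294. Levels are normalised log2 signals with the array background removed and an offset of 16 added, which compresses the fold change of dim probes. A probe counted as detected on an array at a detection *p*-value below 0.01, and the 14621 probes detected on at least 3 of the 6 arrays, from 10613 genes, were tested with limma. Probes with a Benjamini-Hochberg adjusted *p* below 0.05 over all of these count as changed. Of the members' 17 probes, 13 passed this filter, and the other 4 (a probe each of *H2-K1*, *H2-D1*, *B2m* and *Psmb8*) were detected on no array. By probe, 9 of the 13 were lower, where 16.3% of all tested probes were, and 1 was higher. By gene, 19.0% of all tested genes had a lower probe and 18.1% a higher one. The probes of *Tap1*, *Tap2* and 1 probe of *Tapbp* passed the filter only through the cel-239b arrays and so had to be lower. Of the 9 member probes detected on all 6 arrays, 5 were lower, beside 16.1% of all probes so detected. Of the 13 tested probes, 9 lay lower with no overlap between groups, which held for 23.6% of all tested probes. These were the probes called lower, including the 3 that had to be lower. Both tested *B2m* probes lay higher with no overlap, which held for 24.3% of all tested probes. The count of 7 lower genes depended on single arrays, since it was 4 without cel-239b replicate 2 or 3 and 5 or 6 without any other array. In part, this comes from the filter, because probes seen on the cel-239b arrays alone are no longer tested once a control array is left out.

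**Figure D1:**
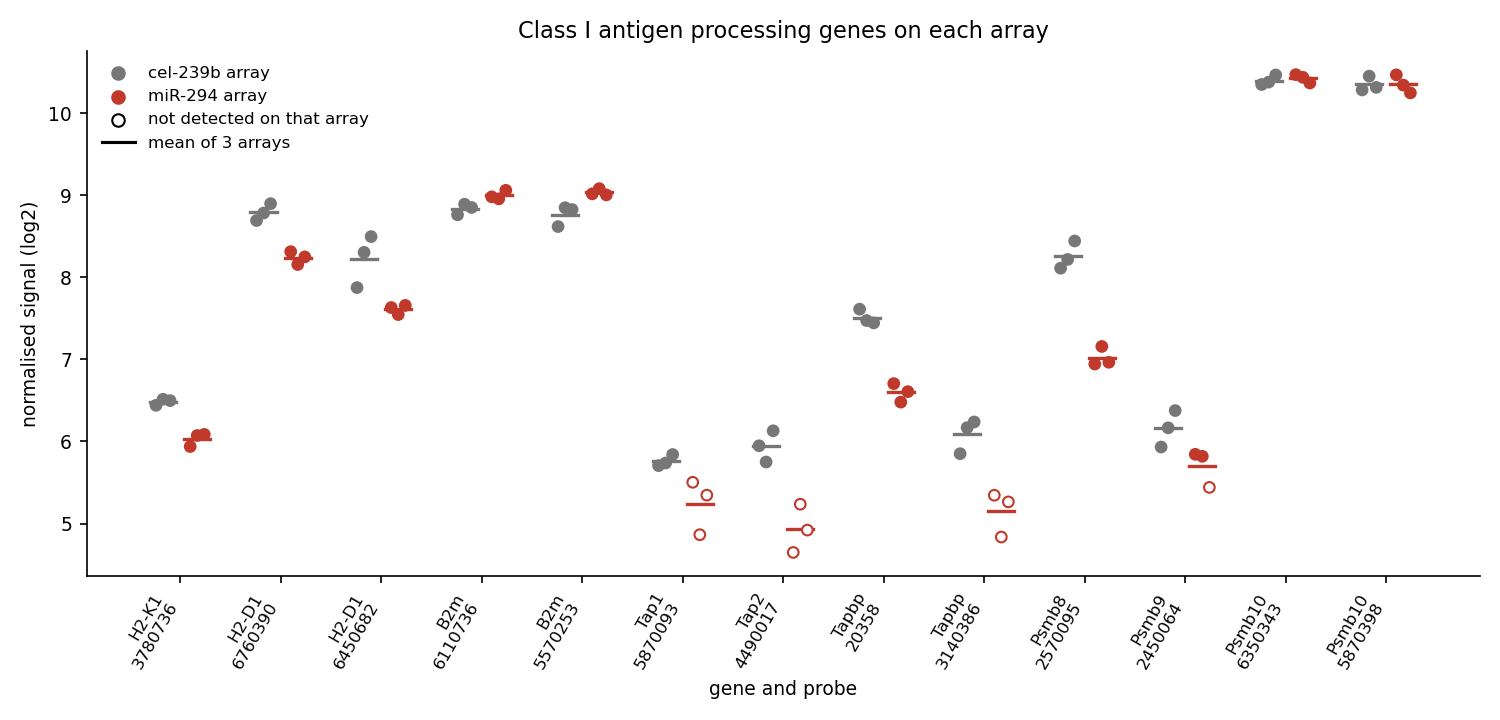
Normalised log2 signal of the 13 tested probes of the class I genes (y axis) on each of the 3 cel-239b arrays (grey) and 3 miR-294 arrays (red), with open circles where the probe was not detected and lines at the group means. The groups overlap for the *Psmb10* probes and for no other gene, and the *Psmb8* points fall from between 8.11 and 8.44 to between 6.94 and 7.16.

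A stricter cut-off, a *B*-statistic (the log odds that a probe changed) above 5, is the one used in the study. No member probe passed it in limma, where 0.793% of all tested probes passed it as lower and 0.677% as higher. At an unadjusted *p* below 0.05, 9 member probes were lower and 2 higher, where 21.6% and 22.7% of all tested probes were. *Psmb8* came nearest with a *B*-statistic of 4.996, followed by *Tapbp* probe 20358 with 4.59. Under alternative processing, the *Psmb8* probe exceeded 5 in 6 of 16 settings and the *Tapbp* probe in 5 of 16.

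**Figure D2:**
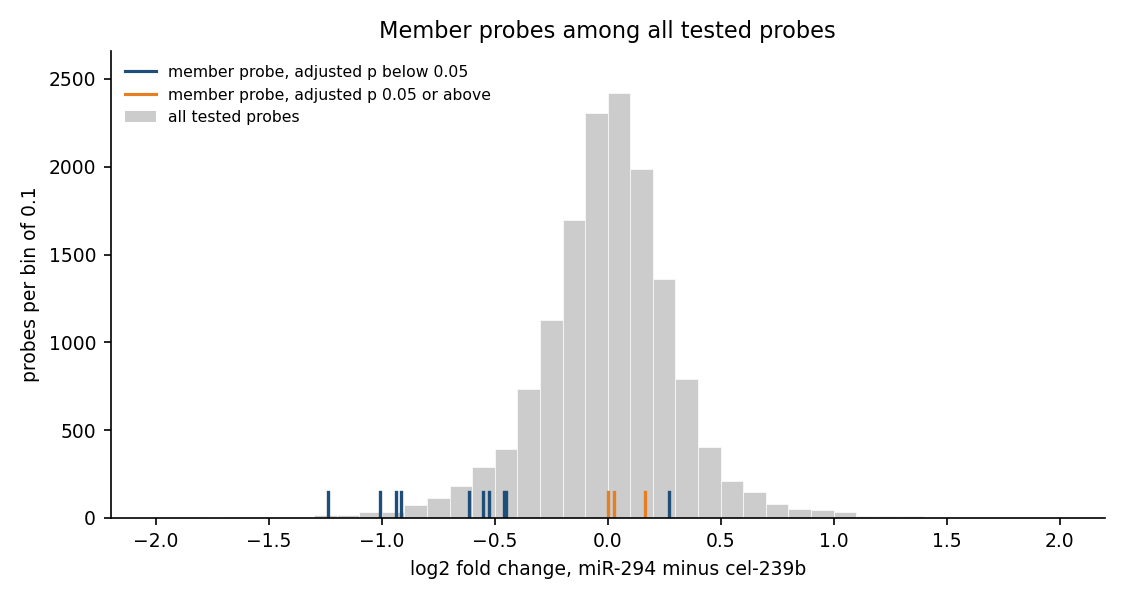
Number of tested probes (y axis) per bin of log2 fold change, miR-294 minus cel-239b (x axis), for all 14621 tested probes (bars), with the 13 member probes as ticks, blue where the adjusted *p* was below 0.05 and orange otherwise. The ticks of 9 probes lie at -0.45 or below, in the left tail of the bars, which are centred on a median of 0.01.

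The 6 arrays were of like quality. Between 30.6% and 32.9% of probes were detected per array, the median probe was read from 44 beads, and correlations were 0.995 to 0.997 within groups and 0.983 to 0.988 between groups. Markers of ES cells were detected for 15 of 15 genes, and their summed linear signal, taken here over the brightest probe of every gene in a list, was 89364 to 93492 on the cel-239b arrays and 95294 to 98092 on the miR-294 arrays, with 7 genes higher and 1 lower. Fibroblasts and leukocytes express class I genes strongly. Of 14 fibroblast or feeder cell markers, *Thy1* alone was detected, and it was higher with miR-294. The collagen markers were not detected, and the sum over the list was 381 to 387 with cel-239b and 429 to 442 with miR-294. Of 15 leukocyte markers, *Laptm5* and *Cd3e* were detected and *Ptprc*, which defines leukocytes, was not, and the sum over the list overlapped between groups (12688 to 13386 with cel-239b and 12954 to 13491 with miR-294). The summed trophoblast markers were lower with miR-294 (1890 to 2053, against 2719 to 3212), with 2 of 5 detected genes lower and 2 higher. The summed mesendoderm markers were higher (686 to 739, against 490 to 500), with 4 of 11 genes detected and all 4 higher, where 18.1% of all tested genes had a higher probe. Among these, *Eomes* is also in the trophoblast list and is counted as higher there too. The part of these marker shifts in the results was not tested. In such bulk RNA, fewer cells with a transcript and less of it per cell cannot be told apart.

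Both classical heavy chain genes fell with miR-294. *H2-D1* probe 6760390 read 8.69, 8.78 and 8.90 on the cel-239b arrays and 8.31, 8.16 and 8.25 on the miR-294 arrays. All 3 miR-294 values lay below all controls. The means were 8.79 ± 0.10 (SD, n = 3) and 8.24 ± 0.08 (SD, n = 3), which differ by a log fold change of -0.55 ± 0.07 (standard error, SE, limma adjusted *p* = 0.0020), or a signal 31.8% lower. A further *H2-D1* probe, 6450682, read 7.88, 8.31 and 8.50 with cel-239b and 7.63, 7.55 and 7.66 with miR-294. Its control arrays spread more widely than its miR-294 arrays, and the log fold change was -0.61 ± 0.15 (SE, limma adjusted *p* = 0.018). The call for this probe was lost without cel-239b replicate 2 (adjusted *p* = 0.060 from limma) or without miR-294 replicate 2 (adjusted *p* = 0.057), and with no detection filter (adjusted *p* = 0.057), whereas the former probe passed in all 16 alternatives.

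*H2-K1* probe 3780736 was dimmer. It read 6.44, 6.51 and 6.50 with cel-239b and 5.94, 6.07 and 6.09 with miR-294. The groups were separated by more than their spread, with a log fold change of -0.45 ± 0.06 (SE, limma adjusted *p* = 0.0022) that passed in all 16 alternatives. Heavy chain genes of the mouse are close in sequence, and whether a probe also binds the mRNA of a related gene was not tested.

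*B2m*, the light chain that all these heavy chains share, did not follow them. Probe 5570253 read 8.62, 8.85 and 8.83 with cel-239b and 9.02, 9.08 and 9.01 with miR-294, which gave a log fold change of 0.27 ± 0.08 (SE, limma adjusted *p* = 0.031). Probe 6110736 read 8.76, 8.89 and 8.85 against 8.98, 8.96 and 9.06, a log fold change of 0.16 ± 0.06 (SE, limma adjusted *p* = 0.079). Every miR-294 value was above every control value for both probes, but only the former passed the test. This single call was lost without cel-239b replicate 3 (adjusted *p* = 0.055) and without miR-294 replicate 1, 2 or 3 (adjusted *p* = 0.072, 0.090 and 0.063 from limma), and also with median scaling (adjusted *p* = 0.12) or no detection filter (adjusted *p* = 0.069).

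In the peptide loading group, *Tapbp* probe 20358 is the only tested probe detected on every array. The other 3, of *Tap1*, *Tap2* and *Tapbp*, were detected on the cel-239b arrays alone, so their direction was fixed by the filter. Probe 20358 was lower with miR-294. It read 7.61, 7.47 and 7.45 with cel-239b and 6.71, 6.48 and 6.61 with miR-294. The gap between the groups was several times the spread within either, at a log fold change of -0.91 ± 0.08 (SE, limma adjusted *p* = 3.4e-04), which is a signal 46.9% lower.

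The further *Tapbp* probe, 3140386, read 5.85, 6.17 and 6.24 with cel-239b, where it was detected, and 5.34, 4.84 and 5.26 with miR-294, where it was not. For such probes the mean of the cel-239b arrays was set against the lowest signal of any detected probe on each miR-294 array, or the probe's own where higher, which gives a bound on the fold between the group means in this processing, without their spread. By this bound the probe was at least 1.32-fold lower. The limma test was of the fitted change and not of this bound.

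*Tap2*, a subunit of the peptide transporter, read 5.95, 5.75 and 6.13 with cel-239b and 4.65, 5.24 and 4.92 with miR-294. It was detected on all control arrays and on no miR-294 array, and was at least 1.20-fold lower by this bound. On miR-294 replicate 1, the lowest of these values, the probe was read from 10 beads, against 28 to 38 on the other arrays.

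*Tap1*, the partner subunit, read 5.71, 5.74 and 5.84 with cel-239b and 5.50, 4.86 and 5.35 with miR-294. It was likewise detected on the control arrays only and was at least 1.05-fold lower. Its fitted change, which rests on miR-294 values below the detection limit, had an adjusted *p* of 0.037 from limma. Without miR-294 replicate 3 its adjusted *p* was 0.059, with a variance-stabilizing transformation 0.093 and with no detection filter 0.11, all from limma. *Tap1* is thus close to both the detection limit and the threshold of the test.

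**Figure D3:**
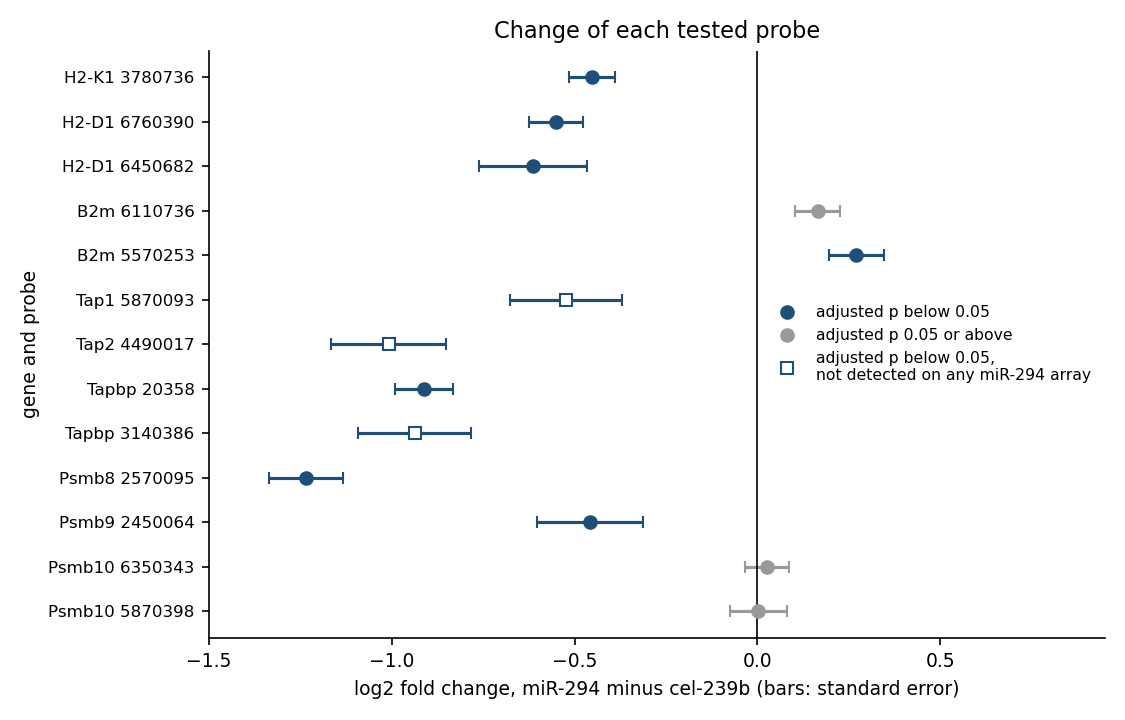
Log2 fold change, miR-294 minus cel-239b, of each tested member probe (x axis) with its standard error (bars), in blue where the adjusted *p* was below 0.05. Open squares are probes not detected on any miR-294 array, whose fold is known only as a bound; *Psmb8* is farthest to the left at -1.24 and the *Psmb10* probes lie at 0.03 and 0.00.

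The immunoproteasome subunits did not move alike. *Psmb8*, which takes the place of Psmb5, read 8.11, 8.22 and 8.44 with cel-239b and 6.94, 7.16 and 6.97 with miR-294. The lowest control array was far above the highest miR-294 array, with means of 8.26 ± 0.17 (SD, n = 3) and 7.02 ± 0.12 (SD, n = 3). The log fold change was -1.24 ± 0.10 (SE, limma adjusted *p* = 2.8e-04), a signal 57.5% lower. This separation was already present in the signals as deposited, before any normalization, which were 307.1, 337.0 and 461.4 with cel-239b and 153.7, 184.2 and 172.2 with miR-294.

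*Psmb9*, which takes the place of Psmb6, read 5.93, 6.17 and 6.38 with cel-239b and 5.84, 5.82 and 5.44 with miR-294. The nearest arrays of the groups differed little, and on miR-294 replicate 3 the probe was not detected. Its log fold change was -0.46 ± 0.14 (SE, limma adjusted *p* = 0.047). The call was lost without cel-239b replicate 2 or 3 (adjusted *p* = 0.11 and 0.14) or without miR-294 replicate 1, 2 or 3 (adjusted *p* = 0.059, 0.068 and 0.11 from limma). It was also lost with the replicate block, the transformation and both looser detection filters, 9 of 15 alternatives in all.

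*Psmb10*, which takes the place of Psmb7, gave the brightest member probes and no difference past the test. Probe 6350343 read 10.35, 10.38 and 10.47 with cel-239b and 10.47, 10.44 and 10.37 with miR-294, and its log fold change was 0.03 ± 0.06 (SE, limma adjusted *p* = 0.76). For probe 5870398 it was 0.00 ± 0.08 (SE, limma adjusted *p* = 0.99). Values of the groups interleaved for both. The constitutive subunits that these replace were also near 0, at -0.14 for *Psmb5* ± 0.08 (SE, limma adjusted *p* = 0.18), -0.08 for *Psmb6* ± 0.05 (SE, adjusted *p* = 0.29) and between -0.04 and 0.03 for the 4 probes of *Psmb7*.

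Unequal change within the pathway was compared on each array, as the difference of log2 signals between a pair of member probes, for 5 pairs chosen after the values were seen. The difference between *H2-D1* probe 6760390 and *B2m* probe 6110736 was between -0.11 and 0.05 on the cel-239b arrays and between -0.81 and -0.67 on the miR-294 arrays, a shift of -0.72 ± 0.07 (SE). *H2-K1* shifted against the same *B2m* probe by -0.62 ± 0.05 (SE) and *Tapbp* by -1.08 ± 0.11 (SE). Against *Psmb10* probe 6350343, *Psmb8* shifted by -1.26 ± 0.09 (SE) and *Psmb9* by -0.48 ± 0.14 (SE). These shifts are a description with no test, since the pairs were taken from probes already seen to differ.

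**Figure D4:**
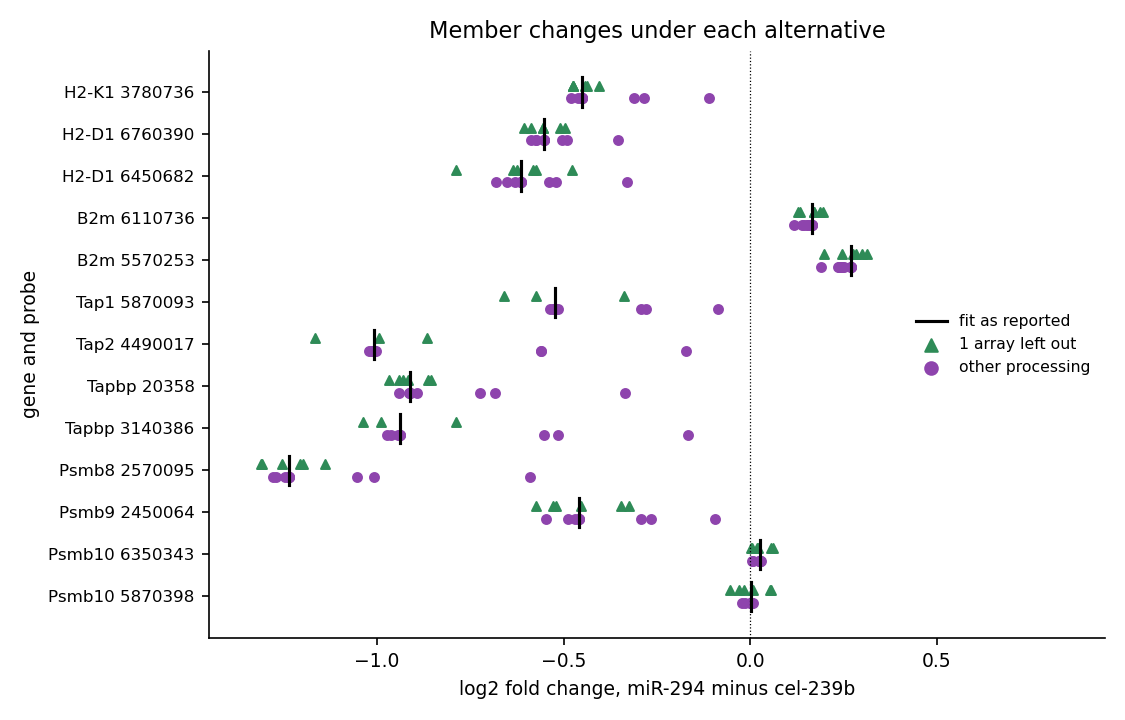
Log2 fold change, miR-294 minus cel-239b (x axis), of each tested member probe in the fit as reported (black line), with 1 array left out (green triangles) and under other processing (purple circles). No called probe crossed 0, the sizes shrank toward 0 under some processing, and the *Psmb10* points lie around 0.

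Without background correction, the log fold changes were -1.01 for *Psmb8*, -0.68 for *Tapbp* probe 20358, -0.49 for *H2-D1* probe 6760390 and -0.29 for *H2-K1*. A variance-stabilizing transformation, which also leaves the background in, gave smaller sizes of -0.59 for *Psmb8*, -0.34 for *Tapbp* probe 20358, -0.35 for *H2-D1* probe 6760390 and -0.11 for *H2-K1*, all still past the test in both settings. The transformation gave -0.17 for both *Tap2* and *Tapbp* probe 3140386, a smaller fold than the bounds above. With that transformation, *B2m* probe 6110736 passed the test too, at 0.12 (adjusted *p* = 0.038 from limma).

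The genes around the pathway were read from 7 lists with 149 genes on the array, of which 72 were tested. A gene counts as changed if any of its tested probes was, and medians are of the brightest probe per gene, where the median over all 10613 tested genes was 0.00. The counts below stand beside the 19.0% of all tested genes with a lower probe and the 18.1% with a higher one. List genes that were detected on the cel-239b arrays alone (*H2-Q7*, *Tapbpl*, *Clec2e* and *Cd40*) could only come out lower, as for *Tap1* and *Tap2*. Among other class I heavy chains, 4 of 8 tested genes were lower (*H2-Bl*, *H2-M2*, *H2-Q7* and *H2-T23*) and 1 was higher, and the median was -0.35. *H2-T23* was lower by its dimmer probe only, and its brightest probe did not pass (limma adjusted *p* = 0.12). *H2-Bl* changed by -0.67 ± 0.07 (SE, limma adjusted *p* = 6.3e-04) and *H2-M2* by -0.42 ± 0.09 (SE, adjusted *p* = 0.011). *H2-Q7* was detected with cel-239b only and was at least 1.18-fold lower. The gene that rose was *Fcgrt*, which encodes a class I-like receptor for IgG and pairs with B2m, at 0.34 ± 0.09 (SE, limma adjusted *p* = 0.023), while its dimmer probe did not pass (adjusted *p* = 0.17).

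In peptide supply and ER loading, 3 of 17 tested genes were lower, near the 19.0% of all genes, and 1 was higher, with a median of 0.00. *Psme1* and *Psme2*, which form the proteasome activator PA28, were both lower, at -0.44 ± 0.07 (SE, limma adjusted *p* = 0.0036) and -0.48 ± 0.08 (SE, adjusted *p* = 0.0043). *Tapbpl*, a tapasin-related protein, was detected with cel-239b only, so it could only come out lower, and was at least 1.26-fold lower. *Calr*, a chaperone of the ER that also handles many other glycoproteins, rose by 0.62 ± 0.15 (SE, limma adjusted *p* = 0.020).

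The regulators of class I genes included 8 lower genes of 15 tested, the other 7 did not pass the test, and the median was -0.17. *Irf2*, an Irf factor that both represses and activates interferon-regulated genes, read 8.26, 8.38 and 8.36 with cel-239b and 6.89, 6.87 and 7.02 with miR-294. It had the largest change of this list, at -1.41 (adjusted *p* = 4.5e-05 from limma, *B*-statistic 8.80). *Irf1*, an activator of class I promoters, was lower by all 4 of its tested probes, between -0.40 and -0.72. *Irf9*, the DNA-binding part of the complex formed after type I interferon, changed by -0.67 ± 0.09 (SE, limma adjusted *p* = 0.0023), and *Irf2bp2*, a corepressor named for binding Irf2, by -0.67 ± 0.06 (SE, adjusted *p* = 3.0e-04). Also lower were *Irf2bp1* and the NF-kappaB subunits *Nfkb2*, *Rela* and *Relb*, whereas *Nfkb1* did not pass by either probe, at 0.00 (limma adjusted *p* = 0.99) and -0.23 (adjusted *p* = 0.18). *Rfx5* was not detected, and no probe carried the name *Nlrc5*.

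**Figure D5:**
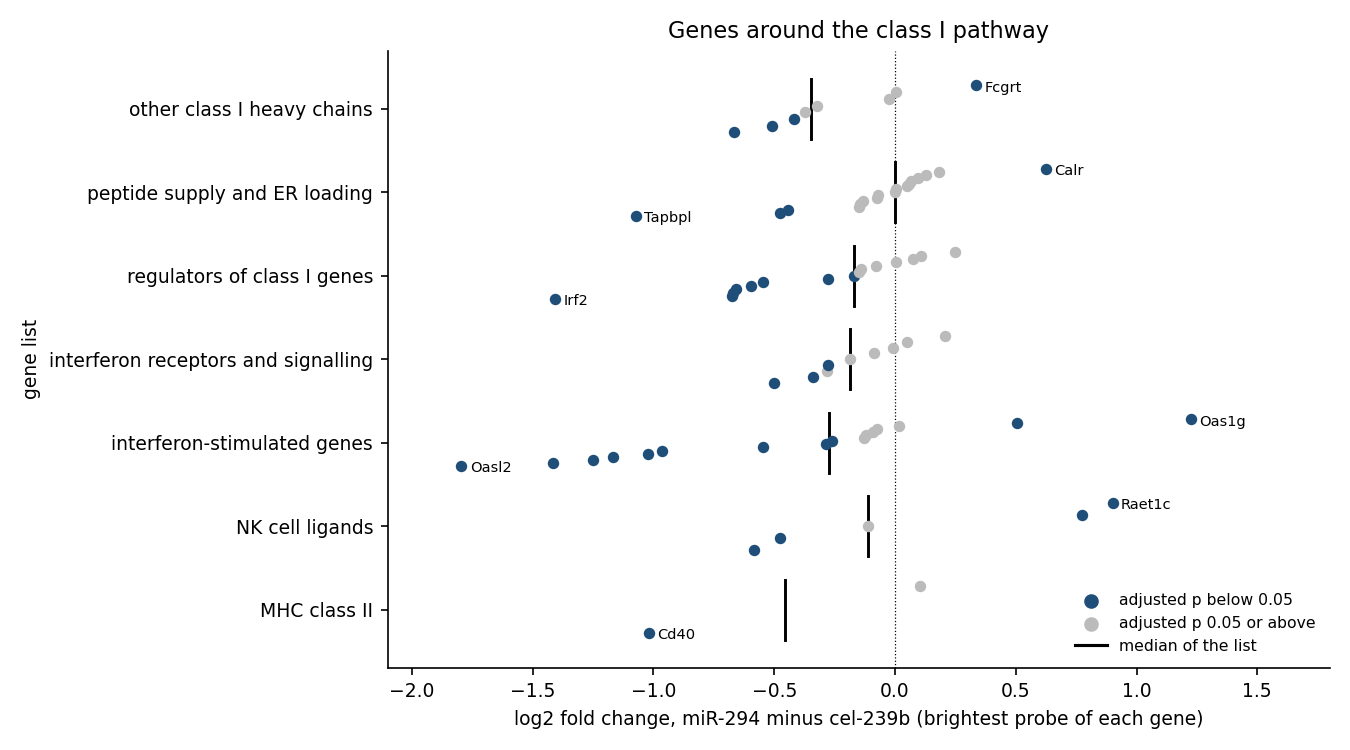
Log2 fold change, miR-294 minus cel-239b, of the brightest tested probe of each gene (x axis) in 7 lists around the class I pathway (rows), blue where the adjusted *p* of that probe was below 0.05, with the list median as a black line. *Irf2* at -1.41 and *Oasl2* at -1.80 lie farthest left in their lists and *Oas1g* at 1.23 farthest right.

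Of 16 tested interferon-stimulated genes, 11 were lower and 2 higher, with a median of -0.27. By the brightest probe alone 9 were lower, since *Irgm* and *Adar* were lower by a dimmer probe only, while their brightest probes were at -0.12 ± 0.08 (SE, limma adjusted *p* = 0.30) and -0.08 ± 0.07 (SE, adjusted *p* = 0.41). *Oasl2*, of the oligoadenylate synthetase family, changed by -1.80 ± 0.11 (SE, limma adjusted *p* = 9.9e-05), *Rsad2*, the antiviral protein viperin, by -1.41 ± 0.10 (SE, adjusted *p* = 1.8e-04) and *Gbp2*, an interferon-induced GTPase, by -1.25 ± 0.07 (SE, adjusted *p* = 9.2e-05). *Rsad2* was detected on 2 of 3 miR-294 arrays, so its fitted change rests in part on a value below the detection limit. *Oas1g*, of the same synthetase family as *Oasl2*, moved the other way, at 1.23 ± 0.10 (SE, limma adjusted *p* = 2.4e-04), as did *Ddx58*, a sensor of viral RNA. Among interferon receptors and signalling genes, 3 of 9 tested were lower and 2 higher, with a median of -0.19. The lower ones were *Tyk2*, a kinase bound to the type I interferon receptor, at -0.50 ± 0.07 (SE, limma adjusted *p* = 0.0025), *Pias1*, a SUMO ligase, at -0.34 ± 0.06 (SE, adjusted *p* = 0.0066), and the receptor gene *Ifnar2* (adjusted *p* = 0.041), which was detected on 1 of 3 miR-294 arrays, so that its fitted change of -0.28 rests mostly on values below the detection limit. *Tyk2* did not pass by its dimmer probes (limma adjusted *p* = 0.15 and 0.85). *Jak1*, a kinase of interferon and other cytokine receptors, was higher by its dimmer probe at 0.75 ± 0.06 (SE, limma adjusted *p* = 3.4e-04), the largest change of this list, while its brightest probe was at -0.19 ± 0.10 (SE, adjusted *p* = 0.20). *Ptpn11* was higher by a dimmer probe at 0.39 ± 0.06 (SE, limma adjusted *p* = 0.0040), and its brightest probe did not pass (adjusted *p* = 0.53).

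Cells low in class I molecules are read by natural killer (NK) cells together with activating ligands, and here 2 of 5 tested ligand genes were lower and 3 higher, with a median of -0.11. *Raet1c* and *Raet1b*, which encode ligands of the activating receptor NKG2D, rose by 0.90 ± 0.11 (SE, limma adjusted *p* = 0.0013) and 0.77 ± 0.05 (SE, adjusted *p* = 1.7e-04). The dimmest probe of each did not pass (limma adjusted *p* = 0.90 for *Raet1c* and 0.11 for *Raet1b*), nor did the dimmer probe of *Pvr* (adjusted *p* = 0.12). These family members are close in sequence and their probes may not separate them. *Pvr*, a ligand of the receptor DNAM-1, changed by -0.58 ± 0.09 (SE, limma adjusted *p* = 0.0027), and *Clec2e* was detected with cel-239b only and was at least 1.13-fold lower. *Pvrl2* was higher by its dimmest tested probe only, while its brightest probe was at -0.11 and did not pass. Of 15 MHC class II genes on the array, 2 were tested. *Cd40*, a costimulatory receptor placed in this list, was detected with cel-239b only and was at least 1.27-fold lower, and *H2-DMa* did not pass.

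The pattern of the brightest member probe, *Psmb10* 6350343, over the 6 arrays was most like those of *AU022252*, *LOC100045312* and *Sco1*. After centring on each probe's mean, the root mean square difference in log2 signal was 0.014, 0.015 and 0.017. With 6 arrays and no difference between groups, this likeness describes variation between arrays alone.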

How the data were processed

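The 6 arrays were Illumina WG-6 v2.0 arrays read in GenomeStudio 1.0.6. The authors deposited, for each array, the signal intensity of each probe averaged over its beads, with no normalization per the file headers, and a detection score, from which the detection *p*-value was taken as 1 minus the score. The bead standard deviation and bead number were deposited too. The study's own normalization is not named in its methods, and 24 columns of values outside these arrays were not used. In limma 3.58.1 (R 4.3.3), neqc estimated the background from the detection *p*-values, added an offset of 16, applied quantile normalization and took log2 values. Probes detected at *p* below 0.01 on at least 3 arrays were fitted with lmFit and eBayes (prior share of changed probes 0.01), with Benjamini-Hochberg adjustment over all tested probes. The main fit had no replicate block. The steps were tested on simulated data.

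The members and gene lists were chosen with earlier results of these data known. Named list genes are the up to 4 per list with the largest change, by the brightest tested probe of each gene, among those past the threshold whose groups do not overlap, and *Irf1*, *Irf2*, *Nlrc5*, *Rfx5*, *Psmb5*, *Psmb6* and *Psmb7* whatever they did (a further gene of this rule is not reported here), with 3 probes most like the brightest member probe. The other genes named were chosen after their values were seen. Marker lists covered ES cells, fibroblasts, leukocytes, mesendoderm, trophoblast and neural cells. Of the neural list, 1 of 7 genes was detected and did not pass. Alternatives were other background corrections, normalizations, offsets, detection filters, thresholds, array weights, a replicate block and each array left out. The number of arrays limits the precision. Replicates were separate transfections, and the labels name no separate cultures, so *p*-values measure the spread between these samples. BeadChip positions were not used here.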

Additional observations from a re-analysis of the deposited data

How the results depend on the processing

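No called member probe changed its direction under any alternative run, while *Psmb10* probe 5870398, never past the test, lay between -0.06 and 0.05. The count of member genes that were lower, 7 in the fit as reported, was 4 when detection on all 6 arrays was required, 0 with a *B*-statistic above 5 and 4 to 6 with 1 array left out. The count of higher members, 1, was 0 with median scaling, with no detection filter, with a *B*-statistic above 5 and with an adjusted *p* below 0.01, and 0 to 1 with 1 array left out. Over all probes, 2380 were lower and 2344 higher, against 116 and 99 with a *B*-statistic above 5 and 1274 and 1039 with an adjusted *p* below 0.01. With 1 array left out there were 1595 to 2270 lower and 1456 to 2424 higher probes, the last count being lowest without miR-294 replicate 1. In the related lists, 32 genes were lower and 9 higher, against 4 and 2 with a *B*-statistic above 5, 5 higher with an adjusted *p* below 0.01, and 24 to 30 lower and 6 to 9 higher with 1 array left out. Arrays of the groups share a number, and the labels name no pairing. Deviations of same-numbered arrays correlated at 0.14, -0.08 and 0.14, and those of differently numbered arrays between -0.20 and 0.08. Whether the arrays were paired cannot be told from these values. With the replicate block there were 6 lower and 1 higher member genes, with *Psmb9* lost (adjusted *p* = 0.094 from limma), and 2160 lower and 2111 higher probes. *H2-K1*, *H2-D1* probe 6760390, *Tapbp* probe 20358 and *Psmb8* passed in all 16 alternatives that were fitted. *Tap2* and *Tapbp* probe 3140386 passed in the 12 that tested them, which says little of their stability, since the filter fixed their direction. With 3 arrays per group, an exact two-sided permutation test of a single probe cannot go below 0.10. Signals near the background limit what can be said of *Tap1*, *Tap2*, *Tapbp* probe 3140386 and *Psmb9*, for which the detection limit sets the lowest level that can be read. *H2-K1* was detected on every array, with miR-294 values of 5.94, 6.07 and 6.09 beside lowest detected signals of 5.73, 5.75 and 5.58. RNA levels at a single time do not separate direct from indirect effects of miR-294 or measure surface protein.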

Other observations

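The 4 member probes left out of the test were below the detection limit on every array. The untested *Psmb8* probe, 2900136, read 5.24, 5.33 and 5.47 with cel-239b and 4.93, 5.07 and 4.98 with miR-294. The untested *H2-D1* probe, 4390451, read 4.46, 4.58 and 4.58 with cel-239b and 4.77, 4.58 and 4.63 with miR-294. The groups did not overlap for the *Psmb8* probe and did for the *H2-D1* probe. All these values were below the detection limit, and neither probe was tested. A further *Irf1* probe, 1190088, was detected on 1 cel-239b array and read 5.67, 5.49 and 5.49 with cel-239b and 5.13, 4.90 and 4.94 with miR-294.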
